A study of Mus musculus with 28 samples.

Results

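Cohesin holds sister chromatids together, and 9 genes of that complex and of its protectors were followed through sorted male germ cells, whole testes and an ovary of wildtype and Csmd1 knockout mice. The genes were taken from a fixed list of 4 meiotic subunits (Rec8, Rad21l, Stag3 and Smc1b), 3 subunits of mitotic or shared use (Rad21, Stag1 and Smc3) and 2 shugoshins (Sgo1 and Sgo2a), out of 37122 genes in the deposited table. All 9 were measured and all 9 passed the filter on low values.

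The cohesin ring is built from a pair of SMC proteins, a kleisin that closes the ring and a STAG protein bound to the kleisin. Somatic cells use SMC1A, SMC3, RAD21 and STAG1 or STAG2. In meiosis SMC1B, the kleisins REC8 and RAD21L and the STAG protein STAG3 take the place of these partners, whereas SMC3 stays in both forms of the ring. Cohesin is needed for the axes of meiotic chromosomes, and shugoshins shield centromeric cohesin from separase at the first division.

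The data are RNA-seq of 28 libraries, and 13 mice gave them. Germ cells of 8 males had been sorted by Hoechst fluorescence into spermatogonia (SG, 2 wildtype and 2 knockout mice), primary spermatocytes (PS, 2 and 4), secondary spermatocytes (SS, 2 and 3) and spermatids (SD, 3 and 2). In addition there were 2 wildtype and 5 knockout whole testes and 1 wildtype whole ovary. An age of 40 days is listed for wildtype mice 178 and 351, and the ages of the other mice were not used here. The study's methods describe the males used for sorting as sexually mature, at about 40 days. The study describes sexually immature as well as mature whole testes, and which of the 7 testes is which was not used here. The part of age in genotype differences was therefore not tested, in whole testis or in sorted cells.

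Knockout mice carried a constitutive Csmd1 allele that lacks the first exon and some of the intron behind it and holds a lacZ and neo cassette there, on a mixed background with wildtype sibs as controls, while the labels name the strain C57BL/6 for every sample. Full-length Csmd1 stood at 0.008 to 0.517 RPKM in the 11 wildtype testicular libraries and at 0.015 to 2.004 RPKM in 15 knockout ones, without that of mouse 613. Reads from exons outside the deleted part do not check the genotype.

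Levels are given as RPKM, reads per kilobase of transcript scaled to the mapped reads of the library, of the longest protein-coding transcript of each gene. In 27 libraries a read counted in every transcript it touched, so sums over transcripts overstate genes with many transcripts, such as Stag1 with 16 and Stag3 with 9. In the primary spermatocyte library of knockout mouse 613 reads were instead shared out between transcripts, so its gene sum is given apart from the means. The limma fits on gene sums include this library unless stated otherwise. For genes with many transcripts its sums are not on the scale of the other libraries, which affects stage and genotype differences of primary spermatocytes. Depth was estimated at 23785358 to 61631321 mapped reads in the 27 libraries.

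Some libraries went against their labels or stood apart. The library labelled spermatogonia of knockout mouse 544 held 6 spermatid markers at a summed 10631 RPKM, against 3.69 to 458 RPKM in the other 3 spermatogonia libraries. Spermatogonia libraries also held 6 primary spermatocyte markers at 158 to 745 RPKM, a range that overlapped the 295 to 903 RPKM of the primary spermatocyte libraries. Prm1, the protamine of late spermatids, was at 0.579 and 2.14 RPKM in the spermatid libraries of mice 648 and 286 but at 930 to 2579 RPKM in those of mice 178, 351 and 544. Somatic markers were also present: the 6 stromal ones summed to 17.0 to 438 RPKM in spermatogonia libraries and to 1.62 to 75.6 RPKM in all other sorted libraries, and the 6 Sertoli cell ones to 51.2 to 98.6 and 4.47 to 105.5 RPKM. The part of these cells in the results below was not tested.

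Promoters of the 4 meiotic subunits are shown because these genes share a use in meiosis but did not share a course through the stages, and that of Sgo1 because it ran close to Rad21l. RefSeq promoters on GRCm38.p6 (250 bases before to 50 bases after a start) matched 8 of the 9 genes, and there was no entry for Rad21. Each runs 5′ to 3′ on the strand of the gene, and capitals mark CACGTG (the E-box), TCCCGC (the core read by E2F factors), TTTGAA (the CHR element of cell cycle genes) and CCAAT on either strand; none of these motifs holds another.
Rec8 (chr14:55617916-55618215, plus strand): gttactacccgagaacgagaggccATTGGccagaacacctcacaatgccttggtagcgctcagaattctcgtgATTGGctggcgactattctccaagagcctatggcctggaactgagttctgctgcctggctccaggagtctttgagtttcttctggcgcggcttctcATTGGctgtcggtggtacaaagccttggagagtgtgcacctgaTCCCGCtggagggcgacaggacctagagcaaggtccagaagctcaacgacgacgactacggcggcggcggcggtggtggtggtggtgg
Rad21l (chr2:151668484-151668783, minus strand): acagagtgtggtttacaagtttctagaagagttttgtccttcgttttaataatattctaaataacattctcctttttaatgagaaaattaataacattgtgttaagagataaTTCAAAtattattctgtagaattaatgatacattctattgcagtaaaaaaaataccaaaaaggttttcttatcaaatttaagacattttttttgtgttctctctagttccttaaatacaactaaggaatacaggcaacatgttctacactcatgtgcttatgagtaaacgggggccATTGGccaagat
Stag3 (chr5:138280259-138280558, plus strand): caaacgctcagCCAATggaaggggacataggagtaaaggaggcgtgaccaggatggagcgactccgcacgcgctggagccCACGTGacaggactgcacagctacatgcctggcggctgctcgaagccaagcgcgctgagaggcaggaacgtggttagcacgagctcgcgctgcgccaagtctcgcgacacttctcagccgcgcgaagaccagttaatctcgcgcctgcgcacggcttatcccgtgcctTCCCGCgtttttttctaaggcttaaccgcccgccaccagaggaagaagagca
Smc1b (chr15:85131908-85132207, minus strand): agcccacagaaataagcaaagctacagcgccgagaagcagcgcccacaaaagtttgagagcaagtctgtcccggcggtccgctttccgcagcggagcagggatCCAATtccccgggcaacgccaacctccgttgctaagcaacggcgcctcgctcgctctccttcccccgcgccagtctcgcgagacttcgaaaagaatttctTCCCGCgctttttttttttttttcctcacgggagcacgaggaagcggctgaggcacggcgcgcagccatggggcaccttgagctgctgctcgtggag
Sgo1 (chr17:53689266-53689565, minus strand): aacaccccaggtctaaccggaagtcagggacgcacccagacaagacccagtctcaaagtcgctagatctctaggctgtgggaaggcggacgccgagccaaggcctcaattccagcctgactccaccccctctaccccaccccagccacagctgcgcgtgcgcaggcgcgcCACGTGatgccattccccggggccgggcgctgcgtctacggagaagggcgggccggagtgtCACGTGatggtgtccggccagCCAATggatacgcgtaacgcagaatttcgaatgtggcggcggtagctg
TCCCGC lay in 6 of the 8 promoters (Rec8, Stag3, Smc1b, Stag1, Smc3 and Sgo2a), against 20% of all 32851 mouse promoters of the same length. CACGTG lay in those of Stag3 and Sgo1 (7.15% of all), TTTGAA in that of Rad21l alone (17.9% of all), and CCAAT in 7 of 8 (37.4% of all). The Rad21l promoter held 29.0% G and C and 2 CpG dinucleotides, whereas the other 7 held 58.3 to 73.7% G and C and 18 to 43 CpG. For Rec8 the RefSeq start lay 129 bases from the start of the transcript measured here. A match of letters is a description and was not tested as a binding site.

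The first question was how the kleisins change as germ cells enter and leave meiosis. Rec8, the kleisin that holds sister centromeres together through the first meiotic division, lies on chromosome 14 (GRCm38, 55618037 to 55625395, 20 exons). It was lowest in primary spermatocytes and highest in spermatids. Its levels in spermatogonia were 4.47 RPKM (wildtype mouse 178), 2.28 (wildtype 648), 3.69 (knockout 286) and 32.8 (knockout 544). In primary spermatocytes they were 0.810 (178), 0.754 (648), 1.32 (544), 2.08 (550) and 3.34 RPKM (614), with 2.47 RPKM for 613. All 5 secondary spermatocyte libraries were above all primary ones, at 11.1 (178), 4.11 (648), 9.94 (286), 19.8 (544) and 18.8 RPKM (550). How many of all genes split between stages without overlap was not counted, here or for the genes below. Spermatids stood at 45.0 (178), 24.4 (351), 9.73 (648), 22.2 (286) and 42.2 RPKM (544).

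Stage means of Rec8 were 1.66 ± 1.08 (SD, n = 5) in primary spermatocytes, 10.8 ± 14.7 (n = 4) in spermatogonia, 12.7 ± 6.55 (n = 5) in secondary spermatocytes and 28.7 ± 14.7 RPKM (n = 5) in spermatids. On the log2(RPKM + 0.1) scale of gene sums, Rec8 rose by 3.08 ± 0.60 (SE) from primary to secondary spermatocytes (limma, adjusted p = 0.019), where 2.81% of 22715 genes rose and 0.15% fell. It was 2.09 ± 0.65 higher in spermatids than in spermatogonia (adjusted p = 0.017), where 13.7% of genes were higher and 26.3% lower. Neighbouring secondary spermatocytes and spermatids differed by 1.22 ± 0.62 (adjusted p = 0.35), a contrast in which 0% of genes rose and 0.128% fell.

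The fall of Rec8 by 2.21 ± 0.63 from spermatogonia to primary spermatocytes (adjusted p = 0.016; 19.1% of all genes fell and 7.54% rose) leaned on the spermatogonia library of mouse 544. Without that library the difference was -1.36 ± 0.58 (adjusted p = 0.088). Within wildtype mice 178 and 648, however, Rec8 was lower in primary spermatocytes than in spermatogonia and higher at both later steps. Mouse 544 had the same order, but its spermatogonia value came from that same library. The call was also lost without mouse 178 (-2.13, adjusted p = 0.112) or 648 (-2.29, adjusted p = 0.0987), and that between spermatids and spermatogonia without 178, 648 or 286 (2.05, 2.16 and 1.47, adjusted p = 0.0710, 0.0617 and 0.112). Leaving out mouse 178, 648 or 550 cost the rise of Rec8 into secondary spermatocytes its call, with adjusted p of 0.502, 0.143 and 0.0878 at differences of 2.86, 3.29 and 2.99.

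Rad21l, the kleisin found only in meiotic cells and active in early prophase, lies on chromosome 2 (151645404 to 151668533, 13 exons). It was highest in spermatogonia libraries, at 2.81 (178), 5.21 (648), 4.56 (286) and 0.631 RPKM (544). The wildtype primary spermatocytes were at 0.020 (178) and 0.036 RPKM (648), which is 2 and 3 reads. The knockout ones were at 0.499 (544), 0.447 (550) and 0.315 RPKM (614), or 18 to 30 reads, and 613 was at 1.22 RPKM. The latter value lay above the spermatogonia library of mouse 544, whereas the other 5 lay below all spermatogonia. Secondary spermatocytes held 0.041 to 0.348 RPKM. Spermatids held 0.111 (178) and 0.308 RPKM (286) and no read in mice 351, 648 and 544, which allows up to 0.076, 0.0351 and 0.0387 RPKM at 3 reads.

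Rad21l fell by 3.71 ± 0.68 from spermatogonia to primary spermatocytes (adjusted p = 0.0014) and was 4.72 ± 0.70 lower in spermatids than in spermatogonia (adjusted p = 0.00016). The 2 steps after primary spermatocytes gave -0.40 ± 0.65 and -0.62 ± 0.66 (adjusted p = 0.78 and 0.68). At 22 reads in the median library, it was the least sampled of the 9 genes.

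Rad21, the kleisin of mitotic cohesin that separase cleaves at anaphase, lies on chromosome 15 (51962240 to 51991747, 14 exons). Spermatogonia held 20.4 (178), 70.8 (648), 41.9 (286) and 18.8 RPKM (544). Every other sorted library held less, with means of 5.80 ± 2.48 in primary spermatocytes, 7.49 ± 2.07 in secondary spermatocytes and 9.09 ± 2.35 RPKM in spermatids (SD, n = 5 each). Rad21 fell by 2.53 ± 0.45 into primary spermatocytes (adjusted p = 0.0012). It was 1.83 ± 0.46 lower in spermatids than in spermatogonia (adjusted p = 0.0054), a call lost without mouse 648 (-1.38, adjusted p = 0.0672) or without 286 (-1.41, adjusted p = 0.0931). The steps between the 3 later stages, at 0.37 ± 0.43 and 0.32 ± 0.44, did not pass (adjusted p = 0.67 and 0.75). Thus none of the 3 kleisins had its highest mean in primary spermatocytes.

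**Figure D1:**
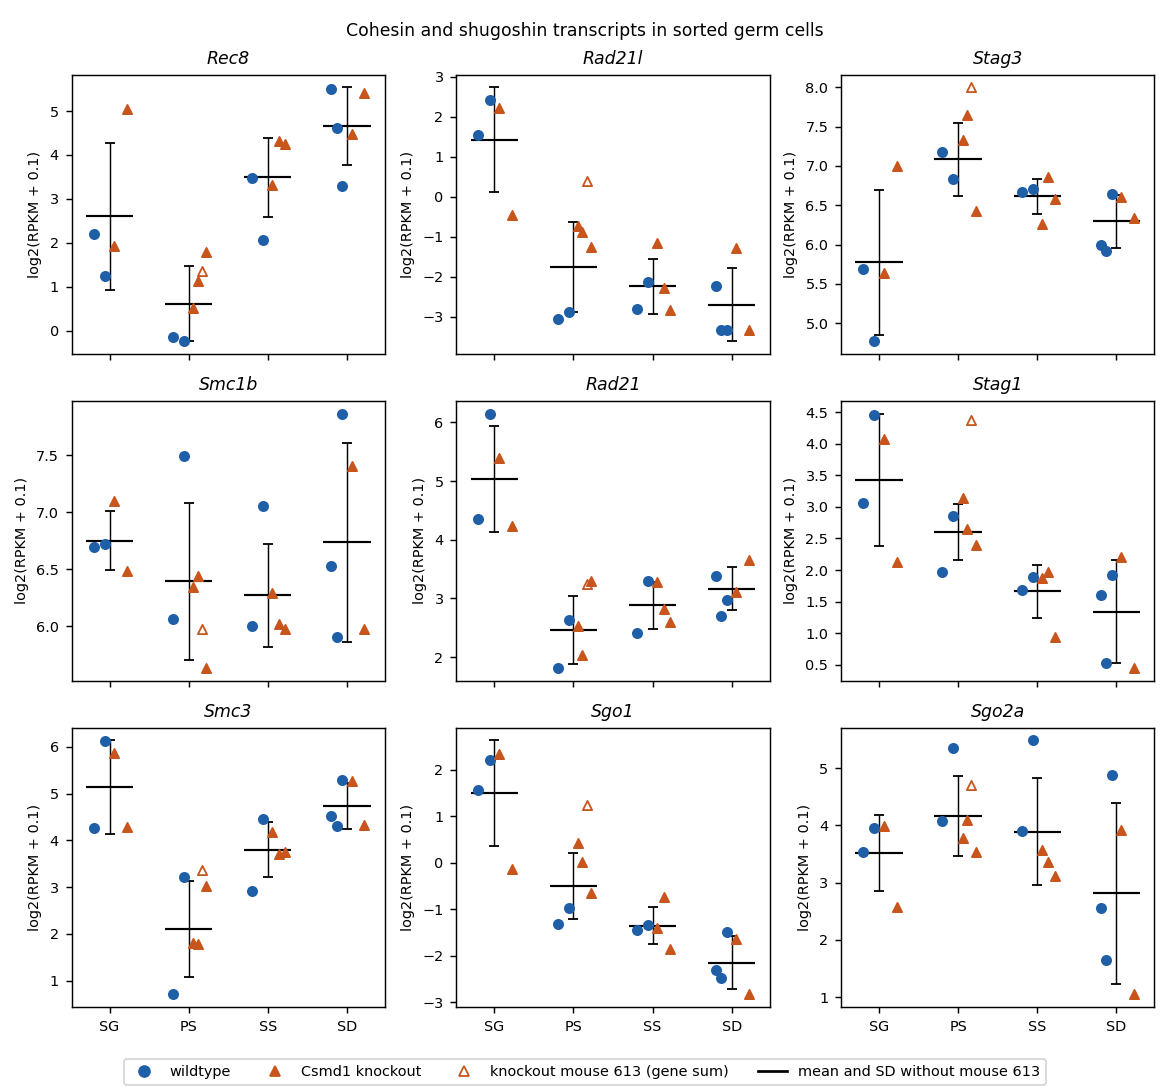
Level of each gene in every sorted library, as log2(RPKM + 0.1) of the full-length transcript, by stage (SG spermatogonia, PS primary spermatocytes, SS secondary spermatocytes, SD spermatids). Circles are wildtype, triangles knockout, the open triangle is the gene sum of mouse 613, and lines give the mean and SD without it. Rec8 dips in PS and climbs to SD, the means of Rad21, Rad21l, Stag1, Smc3 and Sgo1 are highest in SG, and Smc1b stays within one band.

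Stag3 and Stag1 took different courses. Stag3, the meiotic STAG protein, lies on chromosome 5 (138280526 to 138312393, 34 exons). Its spermatogonia levels were 51.3 (178), 27.2 (648), 49.8 (286) and 127.9 RPKM (544). Primary spermatocytes held 144.5 (178), 113.9 (648), 160.5 (544), 200.9 (550) and 85.9 RPKM (614), and 256 RPKM in 613. Secondary spermatocytes ranged from 76.7 to 115.5 RPKM and spermatids from 60.2 to 100.02 RPKM. In each of the 3 mice with all stages Stag3 peaked in primary spermatocytes.

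With all libraries the difference of Stag3 between primary spermatocytes and spermatogonia, 0.93 ± 0.51, did not pass (adjusted p = 0.20). Without the differently summarised library of mouse 613 it was 1.22 ± 0.38 (adjusted p = 0.0207), and with full-length transcripts and without 613 it was 1.30 ± 0.38 (adjusted p = 0.0153). With mouse as a block it was 1.02 ± 0.44 (adjusted p = 0.0790). Later steps of Stag3 were small, at -0.11 ± 0.49 and -0.26 ± 0.50 (adjusted p = 0.92 and 0.83), with 95% intervals of -1.14 to 0.92 and -1.32 to 0.79.

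Stag1, a somatic STAG protein of chromosome 9 (100643448 to 100958545, 34 exons), went from 12.7 ± 7.92 RPKM in spermatogonia (n = 4) to 6.19 ± 1.86, 3.18 ± 0.80 and 2.76 ± 1.44 RPKM in the later stages (SD, n = 5 each). Spermatids were 2.19 ± 0.65 below spermatogonia (adjusted p = 0.014), whereas no single step passed. The first, at -1.25 ± 0.64, had an adjusted p of 0.16 and passed without mouse 544 (-1.92, adjusted p = 0.0428). Both values include the gene sum of mouse 613, which is not on the scale of the others for a gene with 16 transcripts. Without mouse 648 or 286 the spermatid call was lost (-1.99 and -2.22, adjusted p = 0.0943 and 0.0545). In mouse 544 Stag1 was higher in primary spermatocytes than in spermatogonia (8.68 against 4.26 RPKM), unlike in 178 and 648. Stag1 was below Stag3 in every sorted library.

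The SMC subunits had courses of their own. Smc1b, the meiotic SMC1, lies on chromosome 15 (85064689 to 85131964, 25 exons) and was abundant throughout, at 89.3 to 137 RPKM in spermatogonia, 49.6 to 179.7 in primary spermatocytes, 62.8 to 132.6 in secondary spermatocytes and 60.002 to 232.8 RPKM in spermatids. None of its 4 stage differences passed, and the one between primary spermatocytes and spermatogonia was -0.31 ± 0.46 (adjusted p = 0.67, 95% interval -1.28 to 0.65). Spermatid libraries held 232.8 (648) and 169.7 RPKM (286) against 92.1 (178), 60.002 (351) and 62.7 RPKM (544). The first 2 were the spermatid libraries almost without Prm1, and the 6 primary spermatocyte markers summed to 350 (648) and 248 RPKM (286) there, against 32.3 to 85.1 RPKM in the other 3. Smc3 (38.9 and 38.3 against 19.8 to 22.8 RPKM), Sgo2a (29.2 and 15.1 against 1.97 to 5.81 RPKM) and Stag3 (100.02 and 97.0 against 60.2 to 80.5 RPKM) were also higher in these 2 libraries, and Rec8 was lower (9.73 and 22.2 against 24.4 to 45.0 RPKM). The part of these markers in the differences was not tested.

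Smc3, the SMC partner in every cohesin ring, lies on chromosome 19 (53600398 to 53645833, 29 exons). Spermatogonia held 19.04 (178), 69.96 (648), 58.2 (286) and 19.3 RPKM (544), and primary spermatocytes 1.54 (178), 9.25 (648), 3.42 (544), 3.36 (550) and 7.99 RPKM (614), with 10.2 RPKM in 613. It stood at 14.7 ± 5.51 in secondary spermatocytes and 28.0 ± 9.80 RPKM in spermatids (SD, n = 5 each), and each of the 3 mice with all stages had a higher level at both of these steps. Smc3 fell by 3.11 ± 0.55 into primary spermatocytes (adjusted p = 0.0012). Its difference between secondary and primary spermatocytes, 1.79 ± 0.53, missed the threshold (adjusted p = 0.071) but passed with mouse as a block (1.81 ± 0.37, adjusted p = 0.0055) and without mouse 613 (1.85 ± 0.54, adjusted p = 0.0482). Spermatids and spermatogonia differed by -0.45 ± 0.57 (adjusted p = 0.56).

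Both shugoshins are centromere protectors, SGO1 mainly in mitosis and SGO2 in meiosis. Sgo1 lies on chromosome 17 (53674786 to 53689333, 9 exons) and averaged 3.28 ± 1.88 RPKM in spermatogonia (n = 4) and 0.680 ± 0.390, 0.305 ± 0.120 and 0.140 ± 0.093 RPKM in the stages that followed (SD, n = 5 each). Spermatogonia and primary spermatocytes overlapped, and of the 3 mice with all stages 178 and 648 had the lower level in primary spermatocytes while 544 had the higher one (1.24 against 0.814 RPKM). Over all libraries Sgo1 fell by 2.57 ± 0.67 into primary spermatocytes (adjusted p = 0.0096) and was 4.61 ± 0.68 lower in spermatids than in spermatogonia (adjusted p = 0.00017). The former call was lost without mouse 178 or 648 (adjusted p = 0.0948 and 0.118).

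Sgo2a, the shugoshin known to protect meiotic cohesin, lies on chromosome 1 (57995971 to 58025899, 9 exons) and shares 2455 of the 4939 bases of its transcript with Kctd18 on the other strand. Whether counting used strand is not given in the sources used here, so its reads cannot be told from those of Kctd18. Its levels were 5.83 to 15.8 RPKM in spermatogonia, 11.5 to 40.7 in primary spermatocytes, 8.62 to 44.8 in secondary spermatocytes and 1.97 to 29.2 RPKM in spermatids, overlapping between all stages. No difference passed; the largest, between spermatids and secondary spermatocytes, was -1.26 ± 0.64 (adjusted p = 0.35). Kctd18 itself was at 0.170 to 6.55 RPKM in these libraries.

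**Figure D2:**
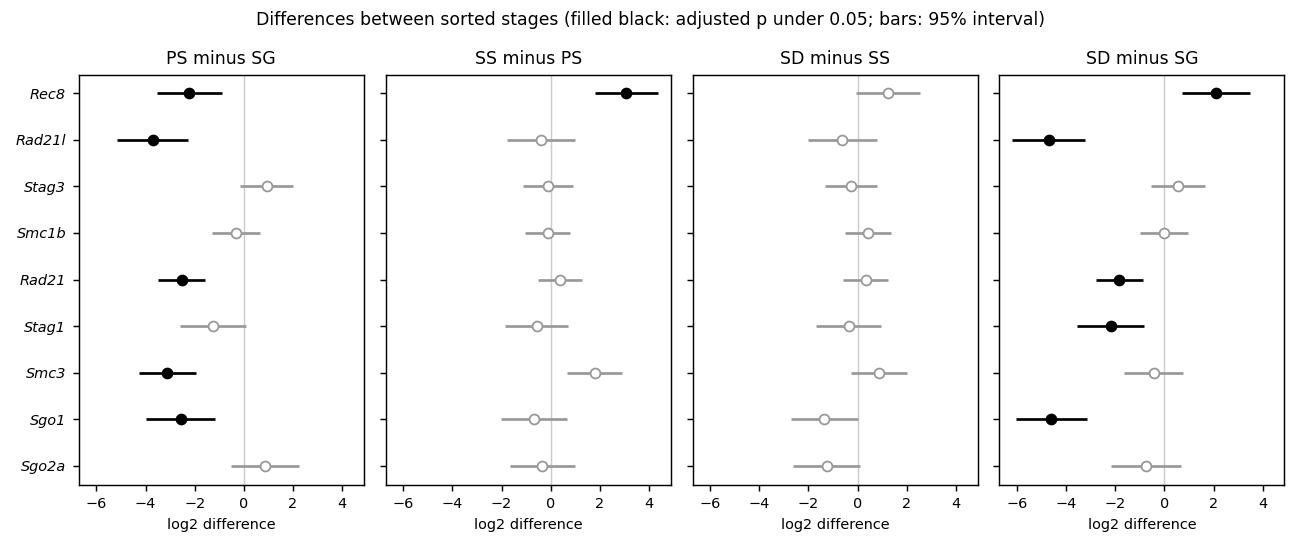
Log2 difference of each gene between sorted stages with its 95% interval, on log2(RPKM + 0.1) of gene sums from the 20 sorted libraries (limma). Filled black points passed an adjusted p of 0.05. There are 5 falls from SG to PS, 1 rise from PS to SS (Rec8), none from SS to SD, and 1 rise and 4 falls from SG to SD. Of all genes, 19.1% fell from SG to PS, 2.81% rose from PS to SS, and 13.7% rose and 26.3% fell from SG to SD.

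Over the 9 genes, 0 rose and 5 fell from spermatogonia to primary spermatocytes, with a median difference of -2.21 beside -0.31 over all genes. From primary to secondary spermatocytes 1 rose and 0 fell (median -0.12 beside 0.28), and 2 passed with mouse as a block. No gene passed from secondary spermatocytes to spermatids (0 at an unadjusted p under 0.05, median -0.26 beside -0.33). Between spermatids and spermatogonia 1 was higher and 4 lower (median -0.76 beside -0.29). Of all 22715 genes, 7.54% rose and 19.1% fell into primary spermatocytes, and 2.81% rose and 0.15% fell into secondary ones. Into spermatids 0% rose and 0.128% fell, and between spermatids and spermatogonia 13.7% were higher and 26.3% lower. The balance over all genes depended on the scaling: 1712 genes rose and 4334 fell into primary spermatocytes on deposited RPKM, and 2962 rose and 2796 fell after quantile normalization, under which Rad21l, Rad21, Smc3 and Sgo1 kept their falls and Rec8 had a difference of -1.70 (adjusted p = 0.0506). Into secondary spermatocytes these splits were 639 and 34 against 255 and 177, and between spermatids and spermatogonia 3115 and 5967 against 4502 and 4727, with the calls of the 9 genes as before.

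The balance between each meiotic subunit and its mitotic counterpart was then compared per library, with full-length RPKM. Stag3 exceeded Stag1 by 1.25 to 29.98 times in spermatogonia, 15.9 to 38.0 times in primary spermatocytes without 613, 21.6 to 52.7 times in secondary spermatocytes and 21.4 to 63.4 times in spermatids. Smc1b exceeded Smc1a, its X-linked counterpart, by 6.498 to 47.8 times in spermatogonia, 51.7 to 399 times in primary spermatocytes without 613, 20.8 to 110.4 times in secondary spermatocytes and 72.1 to 205 times in spermatids. The kleisins did not show this excess at every stage, and only Rec8 in spermatids exceeded Rad21 in all libraries of a stage. Rec8 was at 0.0322 to 1.75 times Rad21 in spermatogonia and 0.123 to 0.518 times in primary spermatocytes, then at 0.423 to 3.14 times in secondary spermatocytes and 1.25 to 4.37 times in spermatids. Rad21l was at most 0.138 times Rad21 in any sorted library. The highest spermatogonia ratios of Stag3, Smc1b and Rec8 came from mouse 544, whose spermatogonia library held spermatid markers. Without it, the highest were 6.19, 24.1 and 0.219 times, in mouse 178.

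In the 3 mice sorted into all 4 stages, the log2 ratio in primary spermatocytes was compared with the mean of the other 3 stages of the same mouse on gene sums. The Rec8 to Rad21 ratio was lower in all 3 mice (-2.13, -1.26 and -3.06, mean -2.15, exact two-sided permutation p = 0.141). The Smc1b to Smc1a ratio was higher in all 3 (1.95, 2.53 and 1.59, mean 2.02, exact p = 0.0781). For Rad21l to Rad21 the mean was 0.46 (exact p = 0.734) and for Stag3 to Stag1 it was 0.21 (exact p = 0.953), with mouse 544 opposite to the other 2 in both. All values of mouse 544 include its spermatogonia library with spermatid markers, and the part of that library was not tested. With 4 ratios tested, none passed before any adjustment, and the smallest p that the 64 arrangements allow is 0.0156.

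**Figure D3:**
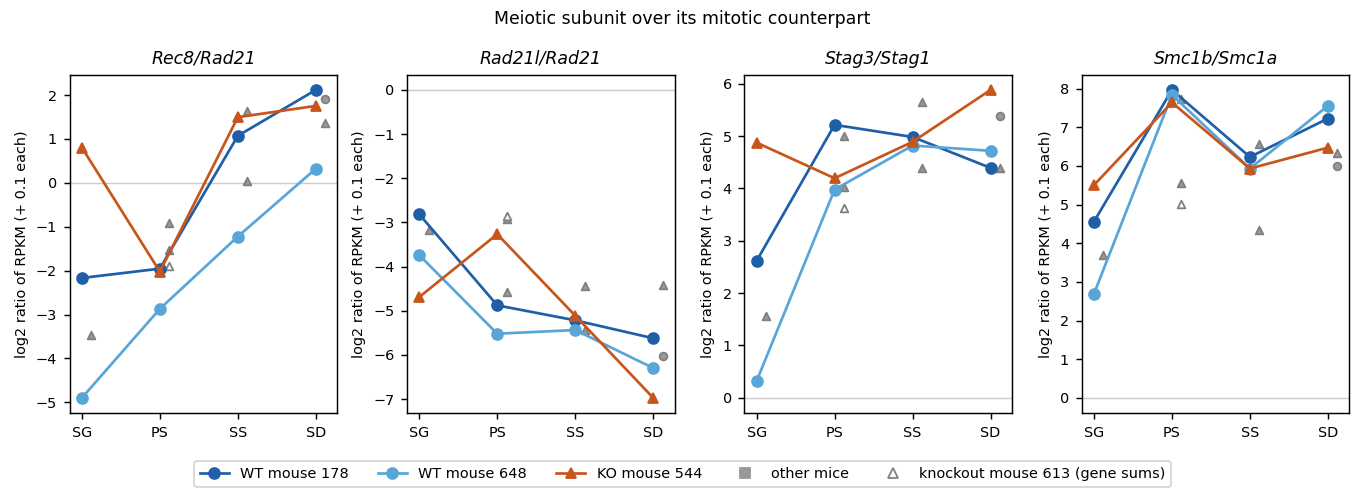
Log2 ratio of the RPKM of a meiotic subunit to its mitotic counterpart by stage, with 0.1 added to each; coloured lines join the stages of 1 mouse and grey points are other mice. Lines for Smc1b/Smc1a peak in PS, Rec8/Rad21 climbs from PS to SD, and the spermatogonia point of mouse 544 lies above those of 178 and 648 in all panels but Rad21l/Rad21.

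Knockout and wildtype mice were compared within each stage. No cohesin or shugoshin gene passed in any stage, where limma called 0% of 22715 genes. At an unadjusted p under 0.05 there were 1130 (SG), 1754 (PS), 716 (SS) and 173 (SD) of all genes, and 0, 1, 0 and 0 of these 9. The 1 was Rad21l in primary spermatocytes, at 2.70 ± 0.89 higher in knockouts (limma, adjusted p = 0.45, 95% interval 0.82 to 4.59), where all 4 knockout libraries (0.315 to 1.22 RPKM) lay above both wildtype ones (0.020 and 0.036 RPKM, 2 and 3 reads). Markers moved with it: the 6 spermatogonia markers summed to 15.7 to 95.3 RPKM in the knockout libraries against 7.27 and 4.46 RPKM in the wildtype ones, and the 6 spermatid markers to 226 to 359 against 132 and 12.2 RPKM. Their part in the difference was not tested, and how many of all genes split by genotype in this way was not counted. Sgo1 in primary spermatocytes followed, at 1.71 ± 0.88 (adjusted p = 0.67). Rec8 was 1.62 ± 0.96, 1.17 ± 0.83, 1.14 ± 0.88 and 0.50 ± 0.88 higher in knockouts over the 4 stages, with adjusted p of 0.95, 0.74, 1 and 1 and intervals that all held 0.

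For Rad21, the interval of the genotype difference ran from -0.69 to 1.80 in primary spermatocytes and from -0.94 to 1.68 in spermatids, and changes within these bounds could not be told from none. A test of whether the genotype difference varied between stages gave 0 of the 9 genes (adjusted p = 1 for each) and 0% of all genes, with 514 genes and none of the 9 at an unadjusted p under 0.05.

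**Figure D4:**
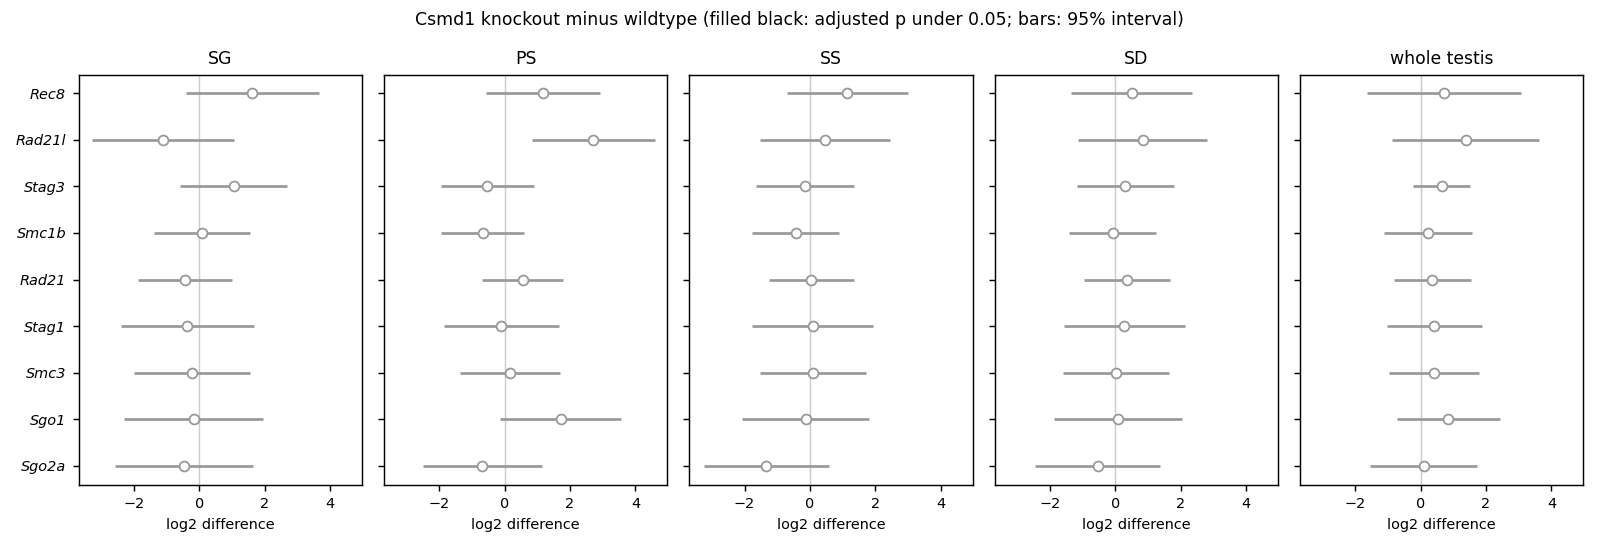
Knockout minus wildtype log2 difference with its 95% interval in each sorted stage and in whole testis (limma, log2(RPKM + 0.1) of gene sums). No point passed an adjusted p of 0.05, and only the interval of Rad21l in PS leaves out 0.

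Whole testes gave the same comparison in unsorted tissue, 2 wildtype against 5 knockout mice. In bulk tissue, fewer cells of a type and less RNA per cell cannot be told apart. Rec8 was at 8.16 (wildtype 178), 2.66 (wildtype 648), 20.8 (knockout 214), 2.92 (269), 22.5 (273), 3.81 (286) and 2.36 RPKM (308). The 3 high values came from the testes that held Prm1 at 603 to 1922 RPKM, and the 4 low values from those that held it at 0.439 to 1.16 RPKM, 1 of them wildtype. Rad21l went the other way, at 0.052 (178), 0.710 (214) and 0.423 RPKM (273) in the former and 1.39 (648), 1.47 (269), 0.804 (286) and 2.07 RPKM (308) in the latter. The latter 4 testes also held more of the 6 primary spermatocyte markers (451 to 1042 RPKM against 134 to 295) and of the 6 Sertoli cell markers (112 to 321 RPKM against 52.5 to 99.7). The part of these cells and of age was not tested. Genotypes overlapped for both genes.

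On full-length levels, Stag3 was the only gene of the 9 of which all 5 knockout testes lay above both wildtype testes. The knockout testes held 91.9 to 124.3 RPKM against 47.1 and 88.7 RPKM. On gene sums the genotypes overlapped, with wildtype 648 above knockouts 214 and 269. The share of all genes with such a split was not counted. The difference of the Stag3 gene sums was 0.65 ± 0.38 (adjusted p = 0.59, exact two-sided permutation p = 0.143 with a smallest possible p of 0.0476). All 9 genes had a positive knockout minus wildtype difference (median 0.42, beside 0.39 over all 22763 genes tested), but after quantile normalization those of Rec8 (-0.06), Smc1b (-0.38), Rad21 (-0.26), Stag1 (-0.19), Smc3 (-0.27) and Sgo2a (-0.51) were negative. limma called 0% of them, with 2492 of all genes and 0 of the 9 at an unadjusted p under 0.05. Exact p values of the 9 genes ran from 0.143 to 0.952. Between testes, Smc1b spanned 43.3 to 195.3, Rad21 5.10 to 17.3, Stag1 1.89 to 8.77, Smc3 5.69 to 20.95, Sgo1 0.393 to 1.77 and Sgo2a 5.25 to 36.7 RPKM.

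The whole ovary, a single wildtype library, held the subunits of the mitotic ring and little of the meiotic subunits Stag3, Smc1b and Rad21l. Rad21 was at 37.1, Smc3 at 27.9 and Stag1 at 23.2 RPKM, beside Stag2 at 42.9 and Smc1a at 31.4 RPKM. Each of the 5 was above every whole testis, where the highest levels were 17.3 (Rad21), 20.95 (Smc3), 8.77 (Stag1), 3.19 (Stag2) and 6.17 RPKM (Smc1a). Stag3 was at 0.256 RPKM (57 reads) and Smc1b at 0.277 RPKM (59 reads), and Rad21l at 0.023 RPKM (2 reads) was under the 3 reads taken as the limit of detection. Rec8, at 5.10 RPKM, lay within the range of the testes, Sgo1 at 3.71 RPKM above it and Sgo2a at 4.76 RPKM below it. Stag3 was at 0.0110 times Stag1, and Smc1b at 0.00882 times Smc1a. The 6 oocyte markers summed to 67.2 RPKM in this library, against 3.01 to 6.996 RPKM in whole testes. Somatic markers were higher too, with sums of 2647 RPKM for the Leydig cell list, 517 for the Sertoli cell list and 285 RPKM for the stromal list, against at most 26.2, 321 and 72.7 RPKM in the testes. Their part in the levels of the mitotic ring was not tested.

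**Figure D5:**
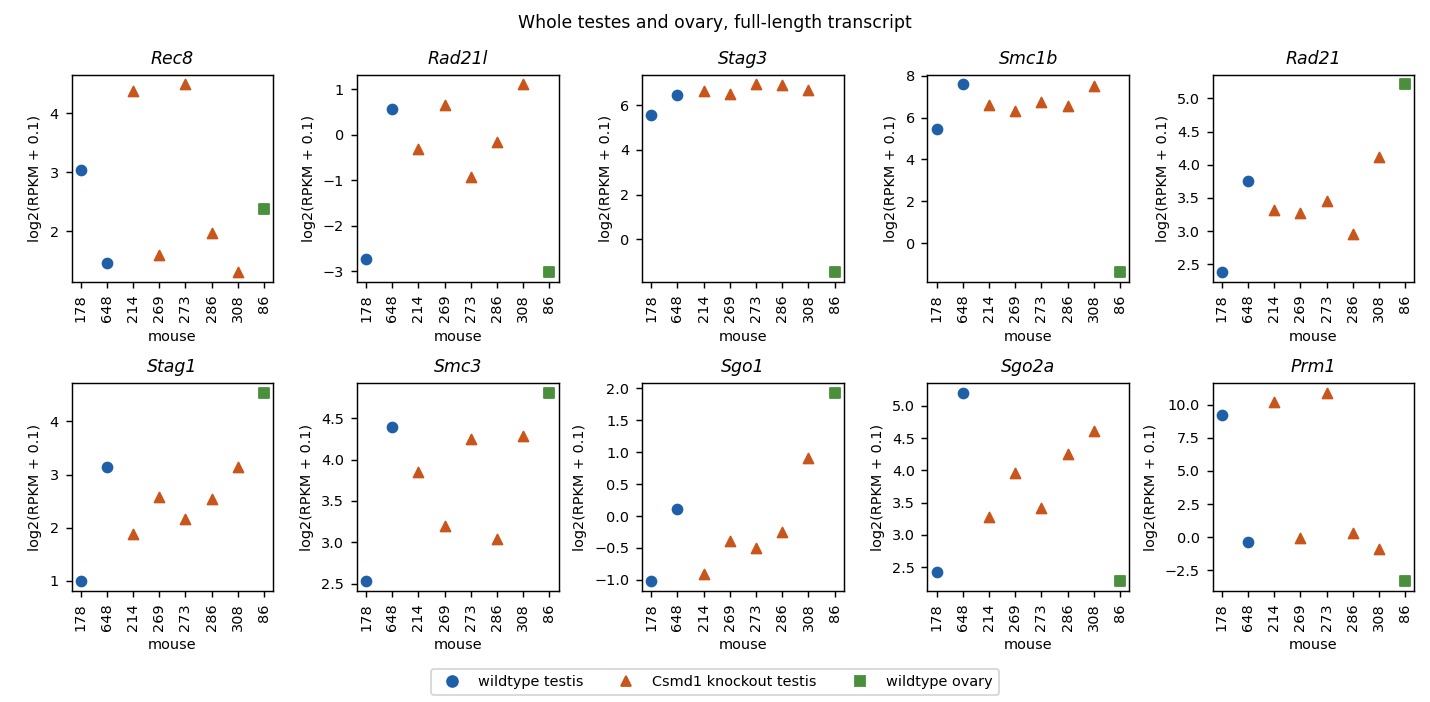
Full-length log2(RPKM + 0.1) in the 7 whole testes and the ovary, by mouse, with Prm1 as a marker of late spermatids. Rec8 is high in the 3 testes with high Prm1 (mice 178, 214 and 273), and the ovary (mouse 86) is lowest for Stag3, Smc1b and Rad21l and highest for Rad21, Stag1, Smc3 and Sgo1.

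Other genes of the cohesin cycle were taken from a list of 21, of which 20 passed the filter. From spermatogonia to primary spermatocytes 2 rose and 4 fell, where 7.54% of all genes rose and 19.1% fell, so the list stood near the background. Both X-linked partners fell, Stag2 by 5.03 ± 0.72 and Smc1a by 3.64 ± 0.70 (adjusted p = 0.00059 and 0.0017). Full-length Stag2 averaged 6.30 ± 2.66 RPKM in spermatogonia (n = 4) and 0.634 ± 0.570 RPKM in primary spermatocytes (n = 5), and Smc1a 8.21 ± 6.46 and 0.485 ± 0.328 RPKM. Transcription of the X chromosome is known to be silenced in pachytene spermatocytes. Esco2, which acetylates SMC3 to lock the ring, fell by 2.61 ± 0.75, and Hdac8, the X-linked enzyme that removes that mark, fell by 2.54 ± 0.55 (adjusted p = 0.017 and 0.0034). Meikin, the meiotic kinetochore partner of polo kinase, rose by 1.97 ± 0.60, and Ppp2r5c, a subunit of the phosphatase recruited by shugoshins, rose by 1.46 ± 0.50 (adjusted p = 0.023 and 0.038).

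Of the same 20 genes, 1 rose from primary to secondary spermatocytes (2.81% of all genes), namely Stag2 by 2.95 ± 0.68 (adjusted p = 0.034), and none passed from there to spermatids (1 at an unadjusted p under 0.05). Compared with spermatogonia, spermatids held less of 6 of the 20 genes (26.3% of all genes), namely Esco2 (-4.11), Smc1a (-2.61), Pds5b (-2.03), Aurkb (-1.85), Pds5a (-1.63) and Ctcf (-1.45), with adjusted p from 0.00082 to 0.015. PDS5A and PDS5B regulate release of the ring and AURKB is the kinase of the chromosomal passenger complex. Ppp2r5c alone of the 20 was higher, by 1.54 ± 0.51 (adjusted p = 0.024; 13.7% of all genes). The loader Nipbl, at 1.23 ± 0.53 in primary spermatocytes against spermatogonia, and the release factor Wapl, at -0.15 ± 0.54, did not pass (adjusted p = 0.10 and 0.87). No gene of the list passed between genotypes, in sorted cells or whole testis.

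Across libraries the 9 genes fell into no single pattern. Over 19 sorted libraries without 613, Pearson's r of full-length log2 levels was 0.92 between Rad21l and Sgo1 and between Stag1 and Sgo1, 0.84 between Rad21l and Stag1, and 0.79 between Rad21l and Rad21. Among the 4 meiotic subunits themselves r ran from -0.52 (Rad21l and Stag3) to 0.18 (Rad21l and Smc1b). Stag3 had r of -0.80 with Rad21 and -0.74 with Smc3. Libraries of 1 mouse share a source, so these values are descriptions.

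The genes most like each member over the 20 sorted libraries were found among 14650 genes with a mean of at least 1 RPKM. Those of Smc3 were Cul4b, Brwd3 and Stag2 (r of 0.98, 0.977 and 0.975), all 3 on the X chromosome although Smc3 is on chromosome 19. Those of Rad21 were Nexmif and Dock11, both X-linked, and Hist1h3a (r of 0.942 to 0.937). Rec8 was nearest to Rfx3, Ica1 and Tmem63c (0.976 to 0.973), and Rad21l to Twsg1, Pbx2 and Snx16 (0.964 to 0.962). Stag3 was nearest to Thap4, Cenpv and Nup188 (0.958 to 0.954), and Stag1 to Rsl1d1, Ckap5 and Bclaf1 (0.953 to 0.948). Smc1b was nearest to Rad17, Arfgef1 and Atg3 (0.928 to 0.902), Sgo1 to Ext2, Foxj3 and Caprin2 (0.968 to 0.962), and Sgo2a to Ankle2, Topaz1 and Lysmd3 (0.952 to 0.945). These r were taken on gene sums and include mouse 613, whose reads were shared out between transcripts. Like the r values between members, they are descriptions.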

How the data were processed

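The authors mapped paired-end reads of polyadenylated RNA with TopHat2 to Ensembl transcripts and deposited 1 table of RPKM values, 94480 transcripts by 28 libraries. PEER adjustment and quantile normalization, named in the study's methods, were not seen in these values: RPKM times length fell within 0.06 of a whole read for 93.1 to 94.6% of low values (12.0% by chance) in 27 libraries and for 14.1% in that of mouse 613. GENCODE M21 (GRCm38) matched 95.6% of transcripts.

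Transcripts were summed per gene, genes with a mean of 0.1 RPKM or more were kept, and log2(RPKM + 0.1) was fitted in limma 3.58.1 (R 4.3.3) to all stage and genotype groups of the 20 sorted libraries, and apart from them to the 7 testes, with Benjamini-Hochberg adjusted p under 0.05. Fold changes on this scale understate those of low genes. Levels used the longest protein-coding transcript. In simulated data with a log2 change of 3 for 200 of 13077 genes, all 200 were recovered in the contrast of primary spermatocytes with spermatogonia. The simulated noise had 1 fixed size and was independent between libraries, without a mouse effect. The recovery therefore checks the code and does not measure power in these data. Groups and mice came from the labels, and same-numbered libraries came from 1 animal: their residuals correlated at a median r of 0.45 (22 pairs, -0.05 for 151 pairs of other mice). Nothing says that sorts were repeated, so the spread within a group is one between mice. The main fit of sorted cells had no term for mouse, however, and treated the 20 libraries of 8 mice as independent. Its p values and intervals therefore ignore the pairing of stages within a mouse and do not measure the spread between mice alone. Floors of reads cover counting error only.

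Named were the 9 members, the cohesin cycle genes that passed and, for each member, its 3 nearest genes. Members, lists and tests were chosen with earlier results of these data known, and 3 alternatives after seeing the data (full-length transcripts without 613, the same with mouse as a block, and sums without the spermatogonia of mouse 544). Alternatives were the pseudocount, the filter, quantile normalization, the transcript used, leaving out each mouse, a mouse block, a term for columns that share missing values, and 1 genotype alone.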

Additional observations from a re-analysis of the deposited data

How the results depend on the processing

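Of 1647 alternative values of a gene and contrast, 1487 kept direction and call, 30 lost a call, 11 gained one, and 119 differences that passed in neither setting changed sign. No called difference changed sign. Leaving out 1 mouse at a time, the number of the 9 genes called was 3 to 6 from spermatogonia to primary spermatocytes (5 with all; 3 without 178 or 648), 0 to 2 into secondary spermatocytes (1 with all; 0 without 178, 648 or 550 and 2 without 613), and 2 to 5 between spermatids and spermatogonia (5 with all; 2 without 648 or 286). Knockout libraries alone gave 0 in these 3 contrasts and wildtype libraries alone 0 into secondary spermatocytes, in fits with fewer samples. Into secondary spermatocytes 2 were called with mouse as a replicate block, with a term for columns sharing missing values, without the spermatogonia of 544, and with full-length transcripts without 613 under the block; the cause was not tested. The block changed no other call of the 9 genes. Between genotypes 0 were called under every setting run. Ratios of partners without 1 mouse ranged from -2.59 to -1.69 (Rec8 to Rad21), -0.65 to 1.07 (Rad21l to Rad21, negative without 544), -0.22 to 0.90 (Stag3 to Stag1, negative without 178 or 648) and 1.77 to 2.24 (Smc1b to Smc1a).

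Over all genes, alternatives gave 0 to 9137 calls from spermatogonia to primary spermatocytes (6046 with all libraries), 0 to 5134 into secondary spermatocytes (673), 0 to 2498 into spermatids (29) and 0 to 12702 between spermatids and spermatogonia (9082). With the block these were 8098, 4121, 1706 and 11838. Genotype contrasts reached at most 1262, 321, 24 and 1 genes in the 4 stages and 159 in testis, against 0. Rad21l, at 0 to 391 reads, is the gene that depth limits most.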
